A study of Sus scrofa with 12 samples.

Results

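Oxidative phosphorylation (OXPHOS) is carried out by the respiratory chain, whose complexes I to IV pass electrons from NADH and succinate to oxygen while pumping protons across the inner mitochondrial membrane, and by complex V, the ATP synthase that uses the proton gradient. Most subunits are encoded in the nucleus and have to be made in step with the few encoded by mitochondrial DNA. Skeletal muscle is rich in these complexes, above all in slow, oxidative fibres, and uses muscle isoforms of some complex IV subunits. The genes described here are the nuclear OXPHOS subunit genes, chosen by symbol alone: NDUFA, NDUFB, NDUFC, NDUFS and NDUFV genes of complex I, SDHA to SDHD of complex II, UQCR genes and CYC1 of complex III, COX4 to COX8 genes of complex IV, and ATP5F, ATP5M and ATP5P genes of complex V. Of 19550 protein-coding genes on placed chromosomes of the pig genome (Sscrofa11.1), 67 met this rule, 38 of complex I, 4 of complex II, 2 of complex III, 8 of complex IV and 15 of complex V. The RefSeq gene table carried the symbols of 53 of them as the rule names them, and 14 ATP synthase genes were found by their current symbol. NDUFA4 and its paralog NDUFA4L2 were counted under complex I by name, although the NDUFA4 protein is known as a complex IV subunit. A processed copy of NDUFA4 on chromosome 13, annotated as a pseudogene, also matched and is left out of all counts. Several subunit genes, CYC1 and COX4I1 among them, were not matched in the gene table and are not analysed here.

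The study mapped active chromatin contacts and chromatin-bound RNA in longissimus muscle of male piglets 2 weeks old, from a commercial lean breed (LW, Large White) and a Chinese local breed (MS, Meishan), with no treatment in either breed. In BL-HiChIP, DNA ends that are near each other in the nucleus are joined through a bridge linker and pulled down with an antibody to H3K27ac, a mark of active promoters and enhancers. In GRID-seq, RNA is ligated to the chromatin beside it, so that the DNA bound by each RNA can be listed. Each assay had 2 libraries per breed. The sources do not tie the libraries to animals, so a p-value here measures only the spread between libraries, which may be technical. No exact permutation of 2 libraries against 2 can reach a p below 0.333. The loop lists held 33353 to 57028 loops, the most in LW replicate 1 and the fewest in MS replicate 2, and the RNA lists held 7172517 to 9943666 reads on 519 to 681 RNAs. Of 11 matched markers of skeletal muscle fibres, 10 had a loop in all 4 libraries and 11 had RNA signal in all 4. Of 4 adipocyte markers, 3 (ADIPOQ, PLIN1 and LEP) had no loop in any library, while CIDEC had a loop in all 4. Of 3 hepatocyte markers, ALB and TTR had no loop, but APOA1 had a loop and RNA signal in all 4 libraries. A loop or signal at a marker therefore does not identify a cell type by itself. In whole muscle, fewer cells of a type and less signal per cell cannot be told apart.

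The loops came in 5-kb bins, each with a false discovery rate (FDR), and the strength of a loop is the −log10 of that value. A gene was said to have a loop when an anchor lay within 1 kb of either gene end, and its loop score is the summed strength of those loops. Of the 67 OXPHOS genes, 46 (LW replicate 1), 49 (LW replicate 2), 43 (MS replicate 1) and 41 (MS replicate 2) had a loop. All pairs of values below keep that order of replicates. Loop scores and RNA signals given in pairs are raw values, before normalization between libraries, unless said otherwise. These were 68.7%, 73.1%, 64.2% and 61.2%, beside 52.9%, 46.6%, 48.4% and 42.0% of all protein-coding genes. OXPHOS genes are short, with a median length of 7166 bp against 20650.5 bp, and 58 of them are under 20 kb. Among protein-coding genes under 20 kb the shares were lower still, at 49.4%, 42.7%, 46.1% and 38.7%. In every library the OXPHOS share was thus the higher one, and this difference was not tested, because the genes are a list and not replicates.

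A loop was present in all 4 libraries for 31 OXPHOS genes (46.3%, against 31.7% of protein-coding genes) and in none for 8 (11.9%, against 37.4%). Their median loop scores were 7.25 and 5.37 (LW) and 4.19 and 2.78 (MS), and over all protein-coding genes it was 2.40 in LW replicate 1 and 0 in the other libraries. The strongest scores were not more common among them: 6 of 67 (8.96%) ranked at or above the 90th percentile of protein-coding genes by mean score. By complex, the share with a loop in all 4 libraries was 42.1% in complex I, 25.0% in complex II, 50.0% in complexes III and IV and 60.0% in complex V. The 8 genes without a loop were the complex I accessory genes NDUFA3, NDUFA9, NDUFA11, NDUFB8 and NDUFS5, SDHB (the iron-sulfur subunit of complex II), COX6C and ATP5ME, a small membrane subunit of ATP synthase. No call of a loop says only that none within 1 kb of a gene end passed the FDR limit at an H3K27ac peak. With a 5-kb window, NDUFA11, SDHB, ATP5ME and NDUFB8 had mean loop scores of 7.58, 6.72, 1.58 and 0.831.

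**Figure D1:**
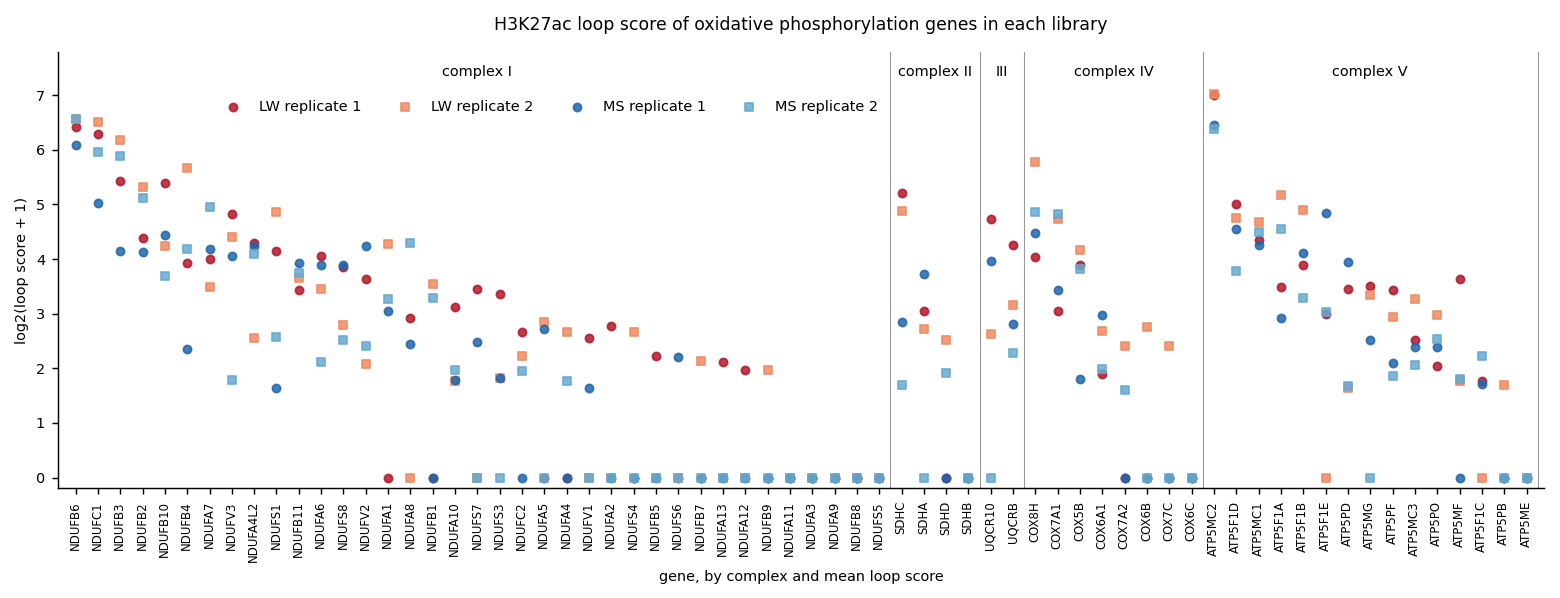
Loop score of the OXPHOS genes, as log2(score + 1), in the 4 BL-HiChIP libraries. Points are single libraries (red circles and orange squares, LW replicates 1 and 2; dark blue circles and light blue squares, MS replicates 1 and 2), and genes are ordered by complex and mean score. ATP5MC2 and NDUFB6 stand highest, and 8 genes lie at 0 in every library.

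**Figure D2:**
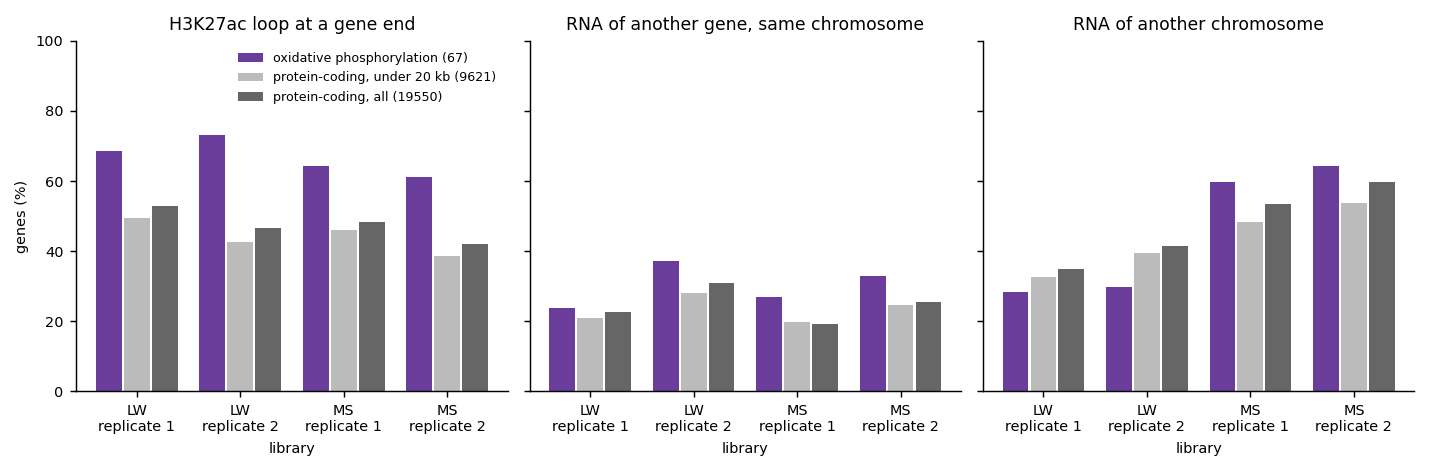
Percentage of OXPHOS genes (purple), protein-coding genes under 20 kb (light grey) and all protein-coding genes (dark grey) with a loop at a gene end, with a listed RNA of another gene on the same chromosome within 5 kb of a gene end, and with a listed RNA of another chromosome there, in each library. The loop share of OXPHOS genes is the highest bar in every library (61.2% to 73.1%), and RNAs of other chromosomes reached 28.4% and 29.9% of them in LW and 59.7% and 64.2% in MS.

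In complex I the leading genes were membrane-arm accessory subunits. NDUFB6 (chromosome 10, 33849206 to 33865080) had loop scores of 84.5 and 94.2 in LW, against 67.1 and 93.5 in MS. NDUFC1 (chromosome 8, 87695273 to 87700024) had 77.8 and 90.5 in LW, against 31.5 and 61.4 in MS. NDUFB3 (chromosome 15, 104747835 to 104759137) had 42.0 and 71.8 in LW, against 16.7 and 58.5 in MS. Only NDUFC1 of these had both LW libraries above both MS libraries. Of the 19 loops at OXPHOS genes that were called in all 4 libraries, NDUFB6 held 5. Its most even loop spanned 135 kb to the bin that holds an end of ACO1, cytosolic aconitase, with strengths of 22.4 and 24.4 in LW, against 21.5 and 24.0 in MS. NDUFB3 was joined over 35 kb to CFLAR, an inhibitor of caspase-8 signalling, with strengths of 17.8 and 27.3 in LW, against 9.06 and 29.6 in MS.

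In complex II, SDHC, a membrane anchor subunit, had loop scores of 35.9 and 28.4 in LW, against 6.19 and 2.22 in MS, so that its libraries did not overlap between breeds. SDHA, the flavoprotein that oxidises succinate, had 7.25 and 5.60 in LW, against 12.2 and 0 in MS. SDHD, the other membrane anchor, had a loop in replicate 2 of each breed only, with scores of 4.71 in LW, against 2.78 in MS. The complex III genes UQCR10 and UQCRB, both small subunits, differed widely between replicates. UQCR10 had 25.7 and 5.16 in LW, against 14.6 and 0 in MS, and UQCRB had 18.2 and 7.95 in LW, against 6.06 and 3.84 in MS.

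In complex IV the 2 muscle isoforms led. COX8H, the symbol of the heart and muscle form of subunit 8 (chromosome 2, 69199 to 70730), had loop scores of 15.5 and 54.1 in LW, against 21.4 and 28.1 in MS. Its neighbouring-bin loop, 5 kb long, was called in all 4 libraries with strengths of 6.18 and 44.3 in LW, against 5.69 and 18.7 in MS, higher in replicate 2 of both breeds. COX7A1, the heart and muscle form of subunit 7a, had 7.33 and 25.7 in LW, against 9.80 and 27.2 in MS. COX7A2, its widely expressed counterpart, had no loop in either replicate 1 and scored 4.28 (LW) and 2.03 (MS) in the replicates numbered 2. In each library COX7A1 thus stood above COX7A2, but COX7A1 shares its anchor bins with the ends of CAPNS1 and ZNF146, and a loop there cannot be assigned to a single gene. COX5B had 13.9 and 16.9 in LW, against 2.47 and 13.2 in MS. COX6A1, the liver-type isoform, had 2.74 and 5.44 in LW, against 6.83 and 2.97 in MS, and the gene of its muscle isoform was not analysed here. NDUFA4L2 had a loop in all 4 libraries, with scores of 18.5 and 4.88 in LW, against 18.0 and 16.0 in MS. NDUFA4 had a loop only in the replicates numbered 2, with scores of 5.37 (LW) and 2.42 (MS). The limit of a shared anchor also holds for COX8H, with PSMD13, and for NDUFA4L2, with NXPH4, SHMT2 and STAC3.

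In complex V, ATP5MC2 (chromosome 5, 18871025 to 18879933) had the highest score of any OXPHOS gene, 128.0 and 128.5 in LW, against 86.7 and 82.3 in MS. It encodes subunit c, which forms the rotating ring in the membrane. Its score was made of 8 and 12 loops in LW, against 6 and 7 in MS, and 4 of its loops were called in every library. The strongest reached 125 kb to a bin without an annotated gene end, with strengths of 76.7 and 44.1 in LW, against 51.1 and 44.9 in MS. ATP5MC1, which encodes the same mature subunit c, had scores of 19.3 and 24.6 in LW, against 18.2 and 21.6 in MS. ATP5F1D, the delta subunit of the central stalk, had 31.2 and 26.0 in LW, against 22.3 and 12.7 in MS. Both ATP5MC2 and ATP5F1D had LW libraries above both MS libraries in raw score, yet limma gave unadjusted p = 0.610 and 0.621 for them. Limma used quantile-normalized log2 scores, on which ATP5MC2 had 7.30 and 6.72 in LW, against 6.87 and 6.31 in MS, and so overlapped. ATP5F1D had 4.84 and 4.68 in LW, against 4.67 and 4.05 in MS.

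**Figure D3:**
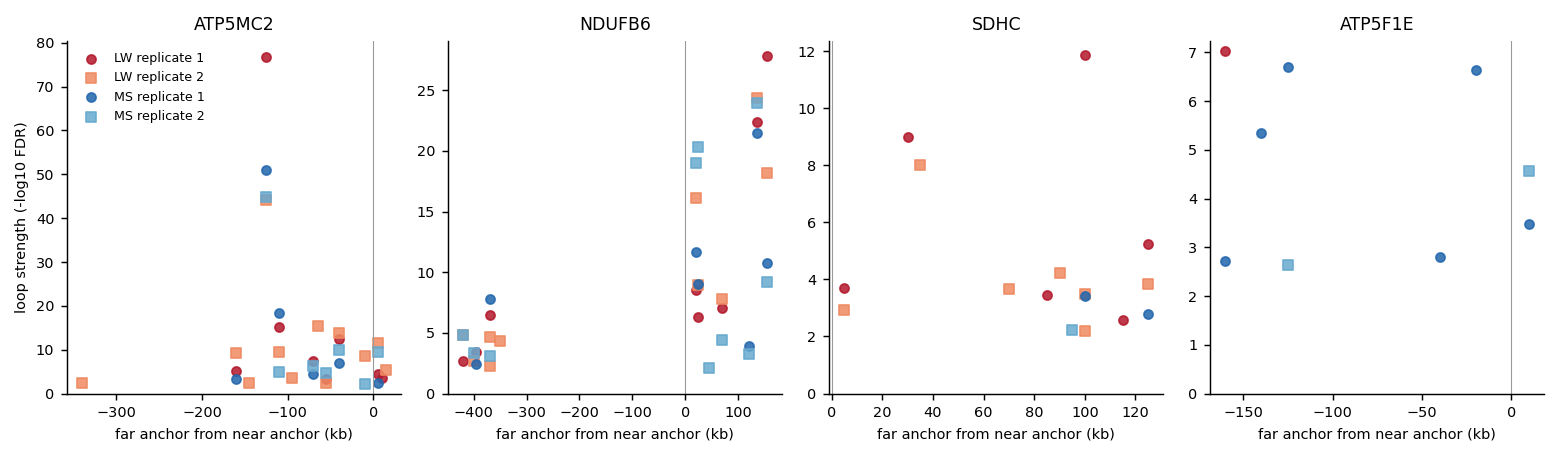
Strength (−log10 FDR) of every called loop of ATP5MC2, NDUFB6, SDHC and ATP5F1E against the distance in kb from the anchor at the gene to the far anchor. Points are single libraries, coloured and shaped by breed and replicate. The loop of ATP5MC2 at 125 kb was called in all 4 libraries (44.1 to 76.7), SDHC has mostly LW points and ATP5F1E mostly MS points.

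The 67 genes held 336 distinct loops, of which 213 were called in 1 library, 71 in 2, 33 in 3 and 19 in all 4. The share in all 4 was 5.65%, beside 4.73% of the 51300 loops at protein-coding genes. Loops at OXPHOS genes spanned 5 to 530 kb with a median of 55 kb, and 36 joined neighbouring bins. The far anchor held the end of another gene for 55.7% to 60.7% of these loops in the 4 libraries, against 39.3% to 42.4% for protein-coding genes. Of the 59 genes with a loop, 39 (66.1%) shared an anchor bin at the gene with the end of another gene, against 47.2%. Of all 67 OXPHOS genes, 34 (50.7%) have an end of another protein-coding gene within 1 kb, against 28.0%. In the 4 libraries 53.5% to 67.5% of the loops at OXPHOS genes had such a shared anchor at the gene, and these loops cannot be told apart from those of the neighbour.

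Across the 67 genes, Pearson's r of log2(loop score + 1) was 0.645 between the LW libraries and 0.719 between the MS libraries. It was 0.806 between the libraries numbered 1 of both breeds and 0.774 between those numbered 2. The genes are not independent replicates, and these values describe the lists only. The order was the same over all protein-coding genes, with 0.811 and 0.804 within breeds and 0.844 and 0.856 within replicate numbers, so that the closeness of same-numbered libraries was not particular to OXPHOS genes.

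To ask which OXPHOS genes differed between breeds, scores were quantile-normalized and compared with limma on the log2(score + 1) scale over all 15431 genes with a loop, of which 59 were OXPHOS genes. No gene passed a Benjamini-Hochberg adjusted p of 0.05 (0% of genes), and 823 genes, 2 of them OXPHOS genes, had an unadjusted p under 0.05. By the study's rule, an unadjusted p under 0.05 with a log2 fold change above 1.5, 1 of 59 OXPHOS genes was higher in LW, where 2.83% of all genes were called, and 1 was higher in MS, where 2.51% were called. These counts are near the background. Both LW libraries exceeded both MS libraries in raw loop score for 14 of the 59 genes (23.7%), against 21.1% of all genes, and the reverse held for 3 (5.08%), against 7.02%. Raw scores are not corrected for the length of the loop lists, whose part in these counts was not tested. The median log2 fold change, LW minus MS, was 0.29 over OXPHOS genes and 0.02 over all genes tested, and without LW replicate 2 the OXPHOS median was −0.02. The normalization set the balance of the calls: LW took 53.0% of all 823 calls, 76.9% of 1121 calls without normalization and 70.5% of 1019 calls when libraries were scaled to the same summed score. Those settings moved the median of all genes to 0.38 and 0.15 and that of OXPHOS genes to 0.71 and 0.44.

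The gene called higher in LW was SDHC, which shares an anchor bin with the end of CFAP126. The limma log2 fold change of SDHC was 2.41 (SE 0.78, unadjusted p = 0.0184, adjusted p = 0.804). Without LW replicate 1 or LW replicate 2 its p was 0.0774 or 0.0550, past the threshold in neither case. The gene called higher in MS was ATP5F1E, the epsilon subunit of the central stalk, with loop scores of 7.02 and 0 in LW, against 27.7 and 7.21 in MS. Its log2 fold change was −2.92 (SE 1.11, unadjusted p = 0.0355, adjusted p = 0.889). LW replicate 1 and MS replicate 2 were nearly equal, and limma's call was lost whichever of the 4 libraries was left out, with unadjusted p = 0.110, 0.213, 0.354 and 0.198. ATP5F1E lies beside PRELID3B and shares its anchor bin with it.

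The next genes by p toward LW were NDUFS1, ATP5MG, NDUFS3 and NDUFV3. NDUFS1, the largest core subunit of complex I, had scores of 16.7 and 27.9 in LW, against 2.13 and 4.99 in MS (unadjusted p = 0.0518). ATP5MG had 10.4 and 9.20 in LW, against 4.75 and 0 in MS, NDUFS3 had 9.33 and 2.54 against 2.54 and 0, and NDUFV3 had 27.3 and 20.1 against 15.5 and 2.44. All 4 had both LW libraries above both MS libraries, though for NDUFS3 by a difference too small to show in 3 digits. The next toward MS were ATP5F1C, NDUFA8, NDUFS6 and NDUFA7. NDUFA7 alone of these had MS libraries above both LW libraries, at 17.1 and 30.1 against 14.9 and 10.2. ATP5F1C, the gamma subunit, had 2.39 and 0 in LW, against 2.28 and 3.65 in MS, NDUFA8 had 6.61 and 0 against 4.46 and 18.7, and NDUFS6 had a single loop, in MS replicate 1. None of these 8 genes passed the threshold, with unadjusted p in limma from 0.0518 to 0.214.

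**Figure D4:**
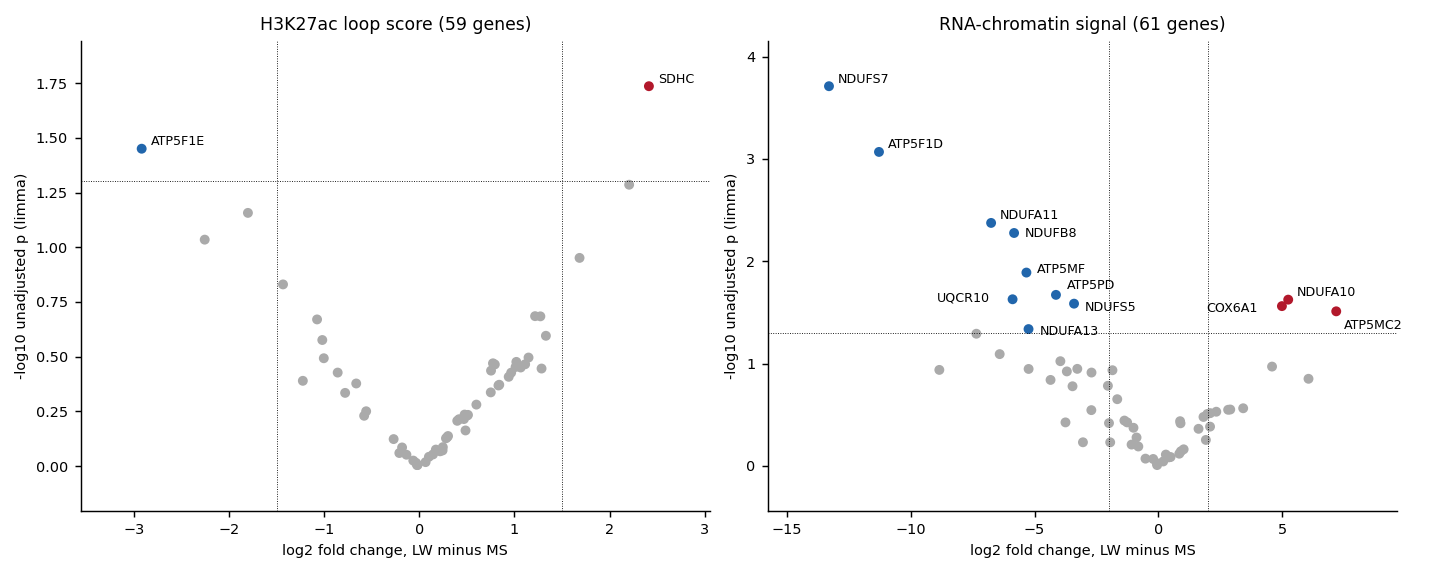
Log2 fold change (LW minus MS) against −log10 unadjusted p from limma for the OXPHOS genes tested, for loop score (59 genes) and RNA-chromatin signal (61 genes). Dotted lines mark the limma p threshold of 0.05 and the fold thresholds, and coloured points are past both (red, higher in LW; blue, higher in MS). Loop score has 1 gene past them in each direction, and RNA-chromatin signal has 3 toward LW and 9 toward MS.

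The GRID-seq lists give, for each listed RNA and 1-kb bin, a background-corrected signal, which was summed over bins within 5 kb of either gene end. This signal was taken as relative to the reads of each RNA, so sums across RNAs do not measure amounts of RNA. In MS replicate 1, ATP5F1D RNA had 432 reads and a signal of 77586 at its gene. TTN RNA there had 697633 reads and a signal of 270 over 19 OXPHOS genes. OXPHOS genes with any signal numbered 31 and 38 of 67 in LW, against 43 and 48 in MS, or 46.3%, 56.7%, 64.2% and 71.6%. All protein-coding genes gave 48.5%, 56.6%, 58.4% and 65.7%. Signal was present in all 4 libraries at 14 OXPHOS genes (20.9%, against 25.3% of protein-coding genes) and in none at 6 (8.96%, against 12.6%), NDUFS3, NDUFA2, NDUFB5, NDUFB11, NDUFA1 and UQCRB. The step between breeds was largest for RNAs of other chromosomes. These lay at 19 and 20 OXPHOS genes in LW and at 40 and 43 in MS (28.4%, 29.9%, 59.7% and 64.2%), and for protein-coding genes the shares were 35.0%, 41.6%, 53.3% and 59.8%. RNAs of other genes on the same chromosome lay at 16 and 25 OXPHOS genes in LW, against 18 and 22 in MS, or 23.9%, 37.3%, 26.9% and 32.8%, beside 22.8%, 30.8%, 19.2% and 25.4% of protein-coding genes. RNAs of other chromosomes gave 0.181% to 0.336% of the summed signal at OXPHOS genes, while RNAs that overlap the gene gave 69.4% to 88.6%. These are shares of the relative signal and not of RNA reads.

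The RNAs found most often at OXPHOS genes were long muscle transcripts and RNAs known only by an Ensembl identifier. ENSSSCG00000048037 lay at 7 and 13 OXPHOS genes in LW, against 23 and 25 in MS. In percent this was 10.4 and 19.4 in LW, against 34.3 and 37.3 in MS, and for protein-coding genes 11.4, 20.2, 25.1 and 28.7. TTN RNA, which encodes titin, the giant spring of the sarcomere, lay at 10 and 9 OXPHOS genes in LW, against 19 and 13 in MS. These were 14.9%, 13.4%, 28.4% and 19.4%, near the shares of protein-coding genes, which were 13.7%, 13.6%, 24.7% and 21.0%. The lists themselves grew in the same direction: ENSSSCG00000048037 was listed on 75846 and 143343 bins in LW, against 154002 and 230814 in MS, and TTN RNA on 125715 and 104803 in LW, against 211276 and 172341 in MS. Whether the OXPHOS values follow this growth was not tested.

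Few OXPHOS transcripts were themselves listed as chromatin-bound RNA. ATP5F1B, the catalytic beta subunit of ATP synthase, was listed in all 4 libraries with 1774 and 1903 reads in LW, against 1971 and 2261 in MS. NDUFA4L2 was listed in all 4 with 1308 and 1485 reads in LW, against 813 and 927 in MS. ATP5F1D was listed in the MS libraries alone, with 432 and 466 reads. UQCRFS1, the Rieske iron-sulfur protein of complex III, was listed with 773 and 808 reads in LW, against 1245 in MS replicate 2, and UQCRC1, a core protein of complex III, with 551 reads in LW replicate 1. These last 2 genes had no row in the gene table used and so do not count among the 67. The lists stop at 441 and 446 reads in LW and at 432 and 455 in MS, so an RNA missing from a list is not shown to be absent. ATP5F1D had the fewest reads of any RNA listed in MS replicate 1.

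None of these RNAs was listed on another chromosome. The share of signal within 10 kb of the gene was at least 99.4% for ATP5F1B in all 4 libraries. For NDUFA4L2, LW gave 79.2% and 81.1% and MS 98.3% and 91.2%, with its farthest bin at 61.7, 50.6, 22.6 and 252 kb. Read counts were compared with edgeR's quasi-likelihood test over the 308 RNAs listed in all 4 libraries, which are not a sample of all genes. ATP5F1B was higher in MS, with a log2 fold change (LW minus MS) of −0.37 (SE 0.03, adjusted p = 2.66e-04), and NDUFA4L2 was higher in LW, with 0.52 (SE 0.04, adjusted p = 2.18e-04). Of the 308 RNAs, 86.7% were called, so a call in this test says little about a single RNA. The signal on chromatin around ATP5F1B was 65734 and 53033 in LW, against 32822 and 29687 in MS, with limma giving a log2 fold change of 0.87 (SE 0.85, unadjusted p = 0.366).

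The 5 OXPHOS genes with the highest mean signal were NDUFA4L2, ATP5F1B, ATP5F1D, NDUFS7 and COX7A1, and each owed it to an RNA that overlaps the gene. As the signal is relative to the reads of each RNA, this order is not an order of RNA amounts. NDUFA4L2 had 102109 and 105023 in LW, against 107108 and 112458 in MS. NDUFS7, a core subunit that carries an iron-sulfur cluster next to the quinone site (chromosome 2, 77080311 to 77087141), had 0.0484 and 8.44 in LW, against 65583 and 53248 in MS. The MS signal came from ENSSSCG00000024144, an RNA that overlaps NDUFS7 and was listed in MS alone, with 522 and 613 reads. ATP5F1D had 8.24 and 106 in LW, against 77742 and 58493 in MS, by its own RNA. COX7A1 had 10.0 and 0 in LW, against 26.6 and 72363 in MS, where MS replicate 2 alone listed the overlapping CAPNS1 RNA. At NDUFS7 that RNA gave 65530 and 53197 of the MS signal, and at ATP5F1D its own RNA gave 77586 and 58412, so that both differences rest on an RNA that entered the MS lists alone.

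Over all 23749 genes with signal, limma gave no adjusted p under 0.05 (0% of genes), while 3723 genes, 12 of them OXPHOS genes, had an unadjusted p under 0.05. By an unadjusted p under 0.05 with a log2 fold change above 2, 3 of 61 OXPHOS genes (4.92%) were higher in LW, where 7.46% of all genes were called, and 9 (14.8%) were higher in MS, where 8.22% were called. The 9 include NDUFS7 and ATP5F1D, whose calls rest on an RNA listed in MS alone. Both LW libraries exceeded both MS libraries in raw signal at 8 OXPHOS genes (13.1%), against 16.4% of all genes, and the reverse held at 22 (36.1%), against 20.4%. The median log2 fold change was −1.01 over OXPHOS genes, −0.19 over protein-coding genes and −0.07 over all genes tested. Without RNAs of other chromosomes the direction turned, with a median of 0.25 over 43 OXPHOS genes and 0.37 over all genes tested.

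**Figure D5:**
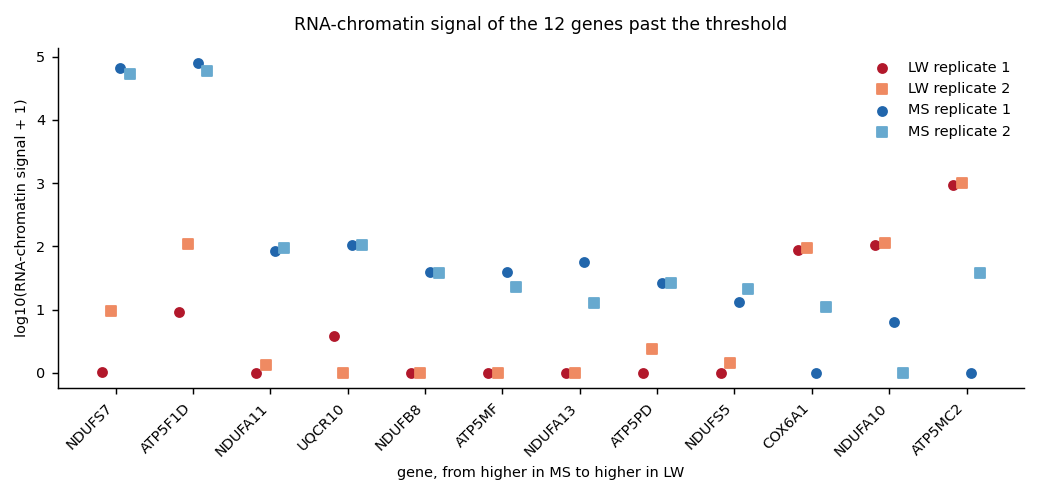
RNA-chromatin signal, as log10(signal + 1), of the 12 OXPHOS genes past the threshold, in each GRID-seq library (red circles and orange squares, LW replicates 1 and 2; dark blue circles and light blue squares, MS replicates 1 and 2). NDUFS7 and ATP5F1D reach 53248 to 77742 in MS, while the other 7 genes higher in MS reach at most 105 in any library.

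Toward MS, NDUFS7 had a log2 fold change of −13.30 (SE 0.88, unadjusted p = 1.95e-04, adjusted p = 0.109) and ATP5F1D −11.28 (SE 1.13, unadjusted p = 8.55e-04, adjusted p = 0.109). The other 7 genes had far less signal, all of it from RNAs of other loci. NDUFA11 had 0 and 0.322 in LW, against 82.4 and 94.6 in MS. UQCR10 had 2.76 and 0 in LW, against 105 and 105 in MS, of which 94.7 and 105 from MYO18B RNA of the same chromosome. ATP5PD, subunit d of the peripheral stalk, had 0 and 1.37 against 24.9 and 25.3, and NDUFS5 had 0 and 0.419 against 12.1 and 20.1. NDUFB8, ATP5MF and NDUFA13 were listed without signal in both LW libraries and had 38.8 and 36.3, 37.7 and 21.4, and 55.1 and 11.9 in MS. The MS libraries were higher at every one of these genes. NDUFA11, NDUFB8 and NDUFS5, 3 of the 9, were among the 8 genes without a loop within 1 kb. With the 5-kb window NDUFA11 and NDUFB8 had a loop. Leaving out LW replicate 1 ended limma's call for NDUFA11 (unadjusted p = 0.0508), ATP5MF (0.112), ATP5PD (0.0671) and NDUFA13 (0.243), and leaving out LW replicate 2 ended it for ATP5MF (0.0988), UQCR10 (0.127) and NDUFA13 (0.250). Leaving out MS replicate 1 ended it for ATP5PD (0.146), UQCR10 (0.198) and NDUFS5 (0.108), and leaving out MS replicate 2 for UQCR10 (0.137). NDUFB8 kept the call whichever library was left out. So did NDUFS7 and ATP5F1D, but their MS signal comes from RNAs listed in MS alone. These RNAs had 522 and 613 reads at NDUFS7 and 432 and 466 at ATP5F1D, where the MS lists stop at 432 and 455. Their LW reads are not known, so a breed difference and the read limit of the lists cannot be told apart. Leaving out a library does not change that.

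Toward LW, ATP5MC2 had 920 and 983 in LW, against 0 and 37.1 in MS. The LW signal came from the RNA of PCBP2, a neighbouring gene on chromosome 5 for a poly(C)-binding protein. That RNA was also listed in MS, with 3634 and 4439 reads against 5289 and 5675 in LW, but not at ATP5MC2. NDUFA10 had 105 and 112 in LW, against 5.34 and 0 in MS, with LRRFIP1 and TTN RNA in both LW libraries. COX6A1 had 86.1 and 93.7 in LW, against 0 and 10.1 in MS, from MYO18B RNA. These were log2 fold changes of 7.18 (SE 2.11), 5.24 (SE 1.41) and 4.98 (SE 1.41), with unadjusted p = 0.0309, 0.0237 and 0.0275 and adjusted p from 0.229 to 0.252. All 3 lost the limma call without LW replicate 1 or without LW replicate 2, at unadjusted p from 0.142 to 0.257, as did COX6A1 without MS replicate 1 (0.105) and NDUFA10 without MS replicate 2 (0.0832). SDHD and COX7A2 came next, with unadjusted p = 0.107 and 0.141 in limma. At COX7A2 the signal was 1254 and 1431 in LW, against 0 and 430 in MS, all from FILIP1 RNA, and at SDHD it was 192 and 125 in LW, against 0 and 33.7 in MS, from ZBTB16 RNA.

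MYO18B RNA thus lay at 2 OXPHOS genes of chromosome 14 with opposite differences between breeds, UQCR10 higher in MS and COX6A1 higher in LW. MYO18B encodes a myosin needed for sarcomere assembly. Its reads were 73079 and 81177 in LW, against 51868 and 61289 in MS. Neither sign turned in any setting tried.

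Genes around the pathway were described in the same way. Of 50 assembly factors, which put the complexes together, 29 were matched. They had a loop in 18 and 19 cases in LW, against 15 and 16 in MS. COX17, the copper chaperone of complex IV, led with loop scores of 111 and 123 in LW, against 74.3 and 144 in MS. Of the 23 with a loop, 1 (NDUFAB1, the mitochondrial acyl carrier protein) was past the loop threshold in LW and none in MS. NDUFAB1 stood in this list, although it is also a subunit of complex I, which the symbol rule did not take in. By RNA-chromatin signal 1 of 26, TIMMDC1, was past the threshold in LW and 3, SDHAF3, COX10 and PET117, in MS. All 14 citrate cycle genes were matched, and 13 and 12 had a loop in LW, against 10 and 12 in MS. None of 13 passed the loop threshold. In RNA-chromatin signal, MDH2, mitochondrial malate dehydrogenase, was past the threshold in LW with 115893 and 94768 against 0 and 8.22 in MS. DLST was past it in MS. Of all genes, 7.46% were called higher in LW and 8.22% higher in MS. The RNAs behind the MDH2 signal are not given here, and an RNA missing from a list is not shown to be absent. CYCS, cytochrome c, had loop scores of 5.60 and 19.4 in LW, against 8.52 and 21.7 in MS. Of 5 genes of mitochondrial transcription, TFB2M was past the loop threshold, with no loop in LW and scores of 3.39 and 10.3 in MS.

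Markers of other cells moved in part. Among 4 leukocyte markers, CSF1R and CD3E were past the RNA-chromatin threshold in LW, while the summed signal of the list was 5265 and 4547 in LW, against 5392 and 3460 in MS and PTPRC had no signal in LW. Their summed loop scores ran toward MS, at 30.2 and 26.4 in LW, against 50.4 and 45.4 in MS, with PTPRC and CD3E at 0 in all 4 libraries. Among 4 endothelial markers, TEK was past it in LW, with summed signals of 14.0 and 26.4 in LW, against 52.5 and 27.2 in MS, and summed loop scores of 36.1 and 67.7 in LW, against 67.1 and 142 in MS. The sums over 4 fibroblast markers were larger in both LW libraries in both assays, and none of the markers passed a threshold. Their summed RNA signals, nearly all at COL1A1, were 131588 and 78598 in LW, against 61854 and 39557 in MS, and their summed loop scores 71.0 and 90.3 in LW, against 40.9 and 49.6 in MS. The satellite cell marker PAX7 was past the loop threshold in LW. The summed loop scores of the 2 satellite cell markers, PAX7 and MYF5, were 22.9 and 14.6 in LW, against 0 in MS, while their RNA signals were 0 and 3197 in LW, against 845 and 3512 in MS. Of 11 muscle fibre markers none was past either threshold, with summed RNA signals of 470352 and 426210 in LW, against 309238 and 315868 in MS. Their summed loop scores overlapped between breeds, at 641 and 1357 in LW, against 674 and 960 in MS. The part of these cells in the OXPHOS values was not tested.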

How the data were processed

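For BL-HiChIP the authors trimmed the linker, mapped to Sscrofa11.1 and called loops per library with FitHiChIP in 5-kb bins (the submitters' notes name Trim Galore 0.4.5, Bowtie2 2.2.5, SAMtools 1.9 and MACS2 2.1.2). Per loop they deposited only a p-value after adjustment (FDR). For GRID-seq the authors deposited, per RNA, a whole number read here as its read count and, per RNA and 1-kb bin, a background-corrected signal, in lists without column names. Genes came from the RefSeq table, which gives no strand, so both gene ends stood for the start. Scores were quantile-normalized and tested with limma 3.58.1 on log2(value + 1), which understates the change of low genes, and read counts with edgeR 4.0.16 (R 4.3.3). An FDR of 0 was set to 1e-300. The tests were tested on simulated data. Genes are named as the 3 highest by loop score per complex, those without a loop, the 5 of smallest p per direction, all past the thresholds, isoform pairs, listed RNAs and the 5 of highest signal. A few genes that this rule names, and results that need them, are not reported here. The members and lists were chosen with earlier results of these data known. Alternatives covered windows, an FDR of 0.001, normalization, the pseudocount, filters, DESeq2 1.42.0 for reads, a replicate block and leaving out each library. The depth of the HiChIP libraries in read pairs is not in the lists. No sequence is shown. The log2 fold change compared LW minus MS, 2 libraries each.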

Additional observations from a re-analysis of the deposited data

How the results depend on the processing

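The alternatives that use the transcription start alone were not run, because the gene table gives no strand. In the loop comparison, OXPHOS genes past the threshold toward LW numbered 2, in place of 1, with an FDR limit of 0.001 or no normalization. They numbered 2 also with scaling to the same summed score, a loop in at least 2 libraries or the replicate number as a block. Toward MS they numbered 2 with a 5-kb window and 0 with the FDR limit of 0.001, no normalization, the scaled sum or all genes included. With table symbols alone, a choice made after seeing the data, they also numbered 0. Over these settings 2.90% to 8.35% of all genes were called, both directions together. In RNA-chromatin signal, a pseudocount of 0.1 left 0 toward LW, and leaving out 1 library gave 6 to 15 toward MS. Without RNAs of other chromosomes 1 of 43 OXPHOS genes had an adjusted p under 0.05 in limma, beside 426 of all 12072 genes tested. With all genes included it was 1 of 67, beside 799 of 28210.

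The 2 pairs share only a replicate number. Deviations of same-numbered libraries correlated at 0.354 over loop scores and −0.01 over RNA signal, and the replicate block moved all calls in loop score from 823 to 1288 and in RNA signal from 3723 to 2569, with 2 OXPHOS genes toward LW and 8 toward MS in the latter.

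Counted over both libraries of a breed, 58 OXPHOS genes had a loop in LW and 49 in MS, 28.5 and 19.2 percentage points above protein-coding genes. With a loop required in both libraries, 37 were left in LW, at 13.7 points, and MS was at 15.8 points. MS gave 22.6 points against genes under 20 kb, 22.5 with a 5-kb window, 13.0 at an FDR of 0.001 and 14.0 by table symbols. With 1 library left out, LW gave 15.7 to 26.6 points and MS 15.8 to 19.2. Any RNA signal was at 49 OXPHOS genes in LW and 55 in MS, 3.89 and 5.72 points above protein-coding genes. Signal in both libraries left 20 and 36, at −5.95 and 5.99 points, so that the LW difference reversed. Without RNAs of other chromosomes 31 and 30 were left, at 8.58 and 12.7 points. Against genes under 20 kb the points were 8.78 and 12.2, by table symbols 0.563 and 2.88, and with a 1-kb window 7.79 in MS. With 1 library left out, LW had 31 to 38 genes at −2.20 to 0.138 points and MS 5.74 to 5.97 points. The causes were not tested. No gene named for its fold change reversed under any setting in which it was tested. NDUFB8, ATP5PD and NDUFS5 had signal only from RNAs of other chromosomes, so without those RNAs they were not tested. NDUFS6, with a loop in 1 library, was not tested where at least 2 were required. The signs of the ATP5F1B and NDUFA4L2 reads held with DESeq2, the block and each library left out, and their calls held with DESeq2 and the block.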
